A study of Canis lupus familiaris with 55 samples.

Results

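Anti-Mullerian hormone, the inhibin and activin subunits, follistatin and their receptors were followed through canine gonads at the time the ovary and testis become distinct. The 9 genes were chosen by name: *AMH*, *INHA*, *INHBA* and *INHBB* encode ligand subunits, *FST* an activin antagonist, and *AMHR2*, *ACVR1B*, *ACVR2A* and *ACVR2B* receptors. *AMH* was read from a table of 24581 annotated genes and the other 8 from a table of 58781 loci assembled with the annotation as a guide. All 9 reached the level required for testing in every comparison, a mean of 1 FPKM or more in a compared group.

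RNA-seq was measured in 55 libraries of embryonic gonads. Of these, 53 each held the gonad pair of 1 embryo, and the other 2 were pools of d34 control gonads, 1 XX and 1 XY, which entered no test. XX DSD embryos at risk came from a mixed American cocker spaniel and beagle pedigree that segregates SRY-negative XX disorder of sexual development (DSD), in which XX dogs form testes or ovotestes. They were SRY-negative carriers of a guanine insertion used as the marker of risk. There were 9 at d35 (4 homozygous, 5 heterozygous), 8 at d37-39 (6 homozygous, 2 heterozygous) and 6 at d41-44 (6 homozygous). Which of them would have formed testicular tissue is not known. XY littermates of the same pedigree also carried the insertion and numbered 4 at d35 (3 homozygous, 1 heterozygous), 5 at d37-39 (5 homozygous) and 3 at d41-44 (1 homozygous, 2 heterozygous). Age-matched controls had beagle parents without the insertion and numbered 6 XY and 6 XX embryos at d37-39, from 2 litters, and 3 XY and 3 XX embryos at d44, from 1 litter. The d34 control pools were beagle and Labrador retriever mixes. Libraries were pooled for sequencing by group, so pedigree, breed background and sequencing pool cannot be told apart, and at d41-44 only 1 XX DSD embryo and no XY littermate was as old as the controls. Gene levels are means of whole gonads, in which fewer cells of a type and less RNA per cell cannot be told apart.

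In mammals AMH is a TGF-beta family hormone made by Sertoli cells of the fetal testis, and it makes the Mullerian ducts regress through the type II receptor AMHR2. Inhibins pair an alpha subunit (*INHA*) with a beta A (*INHBA*) or beta B subunit (*INHBB*), and activins are pairs of beta subunits alone. Activins signal through a type II receptor (ACVR2A or ACVR2B) and the type I receptor ACVR1B to SMAD2 and SMAD3, inhibins block them at the type II receptor, and follistatin binds activins outside the cell. In the mouse ovary *Fst* depends on Wnt4, and *Inhbb* is held low there.

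On CanFam3, *INHA* lay on the plus strand of chromosome 37 (26079419 to 26083619), *INHBA* on the plus strand of chromosome 18 (8267920 to 8288493) and *INHBB* on the minus strand of chromosome 19 (29765635 to 29770311). *FST* lay on the minus strand of chromosome 4 (61779184 to 61785887), *AMHR2* on the minus strand of chromosome 27 (1788291 to 1795743), and *ACVR2A* on the plus strand of chromosome 19 (49641817 to 49732226). No assembled locus carried the name of *AMH*, which lies between *JSRP1* and *SF3A2* in the RefSeq gene order. The locus of *ACVR1B* (chromosome 27, minus strand, 2980977 to 3030700) also held *GRASP*, a scaffold protein gene, so the value belongs to both genes. The locus of *ACVR2B* (chromosome 23, plus strand, 8211199 to 8228638) overlapped an assembled antisense locus (8218759 to 8228625) that averaged up to 2.7 FPKM in a group of embryos, and the library kit does not mark strand, so their reads cannot be told apart.

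Relative depth, estimated from the FPKM steps of low genes, which are worth 1 read each, spanned 5.78-fold over the libraries. Its median was 0.284 in XX DSD gonads of d41-44 and 0.824 in XX controls of d44, with the deepest library at 1 (two-sided exact permutation p = 0.0119, the smallest possible with 6 against 3 libraries). XX DSD gonads and XX controls of d37-39 had medians of 0.54 and 0.599 (two-sided exact permutation p = 0.549). Another 4 libraries of d37-39 stood apart, the XY littermates C3627, C3637 and C3638 and the XY control A1099: they had 18965 to 20913 loci at 1 FPKM or more, against 17145 at most elsewhere. The counts of members that rest on them, and the calls that change, are given with and without them. The sex labels matched *SOX9*, the Sertoli cell transcription factor that activates *AMH*: it averaged 73.4 ± 9.8 FPKM in XY controls of d37-39 and 2.9 ± 0.9 FPKM in XX controls (SD, n = 6 each).

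The 4 ligand genes were higher in XY than in XX controls at both ages tested, and only *INHA* at d37-39 overlapped between the sexes. The share of all features without overlap was not counted. In the d34 pools, *AMH* stood at 850 FPKM in XY and 19.4 FPKM in XX gonads. *INHBB* stood at 65.6 FPKM in the XY pool and 1.29 FPKM in the XX pool, and *INHA* at 168 and 71 FPKM in that order. With 1 library each these differences have no replicate check.

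**Figure D1:**
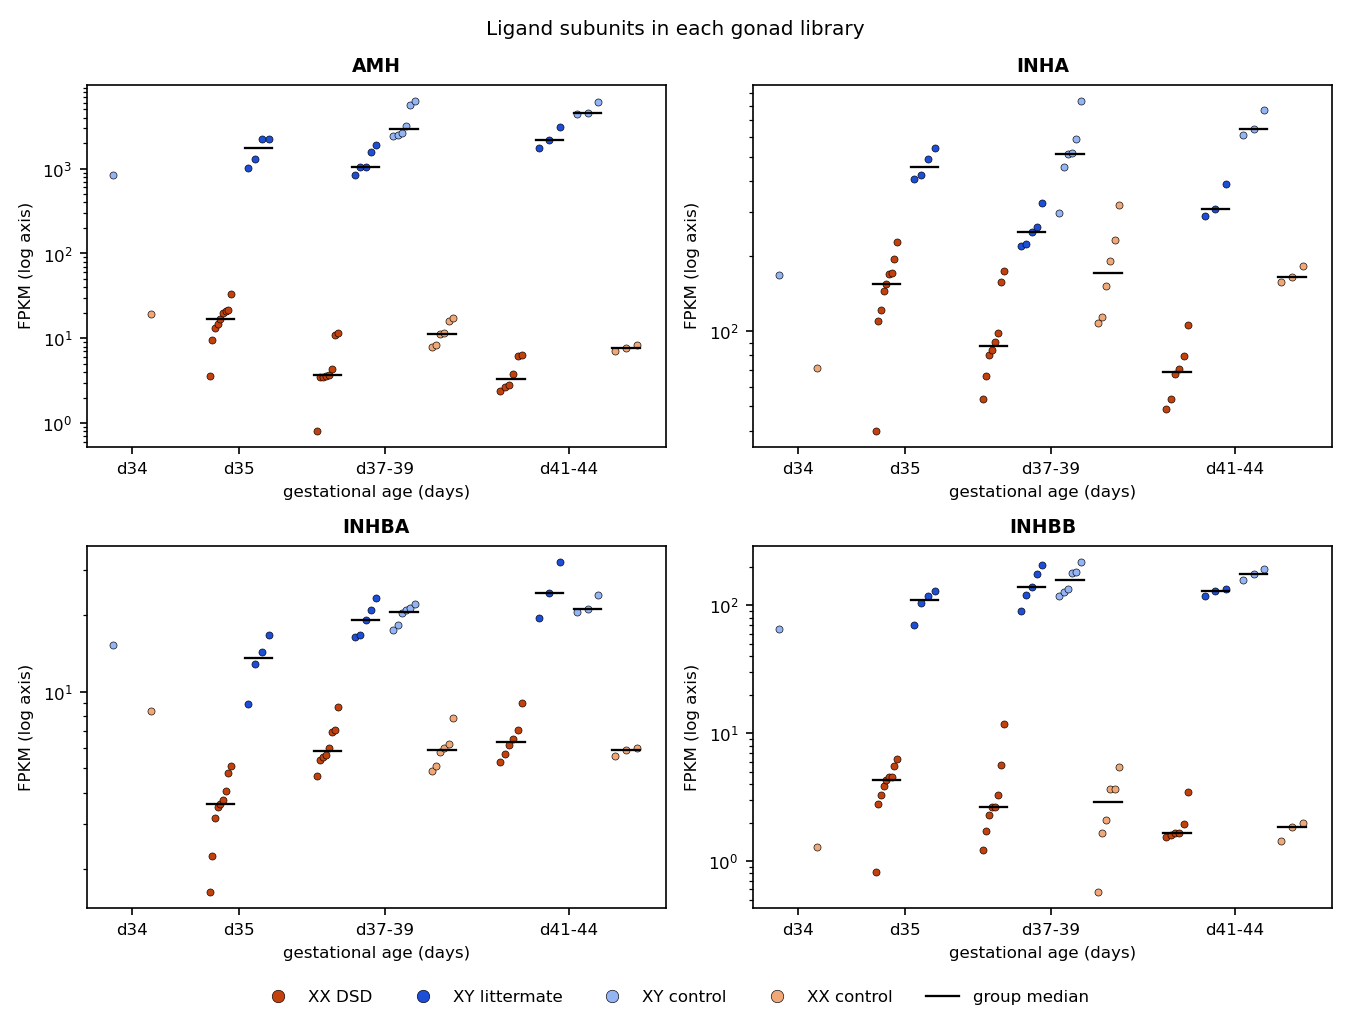
FPKM of *AMH*, *INHA*, *INHBA* and *INHBB* in each gonad library (vertical axes, log scale) by gestational age and group (horizontal axes), with 1 point per library and a line at the median of each group; the d34 points are pools. *AMH* was at 844 FPKM or more in every XY library and at 33.6 FPKM or less in every XX library.

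XY and XX age-matched controls were compared first, since they define the normal testis and ovary pattern of these genes. At d37-39, 6 of the 9 members were called at an adjusted p under 0.05: *AMH*, *INHA*, *INHBA* and *INHBB* were higher in XY controls, and *FST* and *ACVR2B* lower. By the same rule 40.9% of annotated genes, the table of *AMH*, and 26.5% of discovery loci, the table of the other 8, were called. Leaving out A1099 gave the same number, 6. At d44 there were 7 called members, *AMHR2* joining the lower ones, against 36.3% of annotated genes and 24.8% of loci.

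*AMH* ranged over 2419, 2898 and 6269 FPKM (lowest, median, highest of 6) in XY controls of d37-39, against 7.9, 11.4 and 17.3 FPKM in XX controls. The means were 3780 ± 1732 and 12 ± 3.88 FPKM (SD, n = 6 each), a ratio of 314 (limma log2 fold change of FPKM + 1 of 8.12 ± 0.27 SE, adjusted p = 2.5e-10). At d44 the values were 6111, 4499 and 4430 FPKM in XY controls, against 7.73, 8.32 and 7.08 FPKM in XX controls, a ratio of 650 (adjusted p = 6.3e-07). By its group mean, *AMH* was the 17th most abundant of 24581 annotated genes in XY controls of d44 and the 9054th in XX controls, a gap of the groups that no library bridged.

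*INHBB* was the subunit gene with the widest gap between the sexes. It had 118, 157 and 218 FPKM (lowest, median, highest of 6) in XY controls of d37-39, against 0.575, 2.87 and 5.4 FPKM in XX controls, 56.4 times in the means (log2 fold change of 5.49 ± 0.3 SE, adjusted p = 3.5e-08). At d44 it had 176, 192 and 158 FPKM in XY controls, against 1.85, 1.97 and 1.43 FPKM in XX controls, a ratio of 100.2 (adjusted p = 6.7e-06). *INHBA*, the other beta subunit gene, moved the same way by less: 20.1 ± 1.81 FPKM in XY controls and 5.97 ± 1.06 FPKM in XX controls at d37-39 (SD, n = 6 each; ratio 3.37, adjusted p = 1.3e-07). Neither gene's libraries overlapped between the sexes.

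*INHA*, the alpha subunit gene that turns beta subunits into inhibin, was abundant in both sexes. XY controls of d37-39 had 296, 515 and 836 FPKM (lowest, median, highest), against 108, 171.3 and 320 FPKM in XX controls, and 1 XY library (A1095) lay within the XX range (ratio 2.87, log2 fold change 1.56 ± 0.29 SE, adjusted p = 0.0012). At d44 the groups did not overlap, with 766, 613 and 646 FPKM in XY controls and 165, 157 and 182 FPKM in XX controls (ratio 4.02, adjusted p = 0.00013).

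*FST* ran the other way. It had 0.949, 1.89 and 2.19 FPKM (lowest, median, highest) in XY controls of d37-39, against 6.5, 16.2 and 19.9 FPKM in XX controls, 8.19-fold lower in the means (log2 fold change of -2.42 ± 0.24 SE, adjusted p = 7.2e-06). At d44 it had 7.28, 2.89 and 5.58 FPKM in XY controls, against 15.2, 13.3 and 12.8 FPKM in XX controls, 2.62-fold lower (adjusted p = 0.019), and leaving out any 1 XX control ended the call (adjusted p from 0.0653 to 0.0744). The XX control level by age was not monotonic: the d34 pool had 3.72 FPKM, the d37 embryos averaged 10.6, the d39 embryos 18.7 and the d44 embryos 13.8 FPKM, each day of single embryos being 1 litter, so that age and litter cannot be told apart.

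Among the receptors, *AMHR2* did not follow its ligand. In XY and XX controls of d37-39 it averaged 50.6 ± 25 and 43.8 ± 7.06 FPKM (SD, n = 6 each; adjusted p = 0.82), with the highest value, 96.3 FPKM, in A1099. Without A1099 the log2 fold change was -0.12 (adjusted p = 0.67). At d44 it was lower in XY controls, with 24.1, 25.7 and 17 FPKM, against 55.1, 47.7 and 57.2 FPKM in XX controls (2.4-fold lower, log2 fold change of -1.24 ± 0.17 SE, adjusted p = 0.0038).

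The activin receptors differed little between the sexes. *ACVR2B* was lower in XY controls at d37-39 (3.49 ± 0.292 FPKM, against 4.4 ± 0.498 FPKM in XX controls, SD, n = 6 each; log2 fold change -0.26, adjusted p = 0.028), a call lost when all groups shared one estimate of the spread (adjusted p = 0.21) or in d39 embryos alone (adjusted p = 0.16), and without XX control A1097, A1098 or A1088 or XY control A1094 (adjusted p from 0.061 to 0.0691). At d44 it had 1.82, 2.31 and 2.86 FPKM in XY controls, against 4.11, 4.15 and 4.12 FPKM in XX controls (adjusted p = 0.019), a call that ended without any 1 XX control (adjusted p from 0.0731 to 0.0766) or without XY control A1108 (0.0578). *ACVR2A* and the locus of *ACVR1B* were not called at either age, and their 95% intervals of log2 fold change lay between -0.25 and 0.46.

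**Figure D2:**
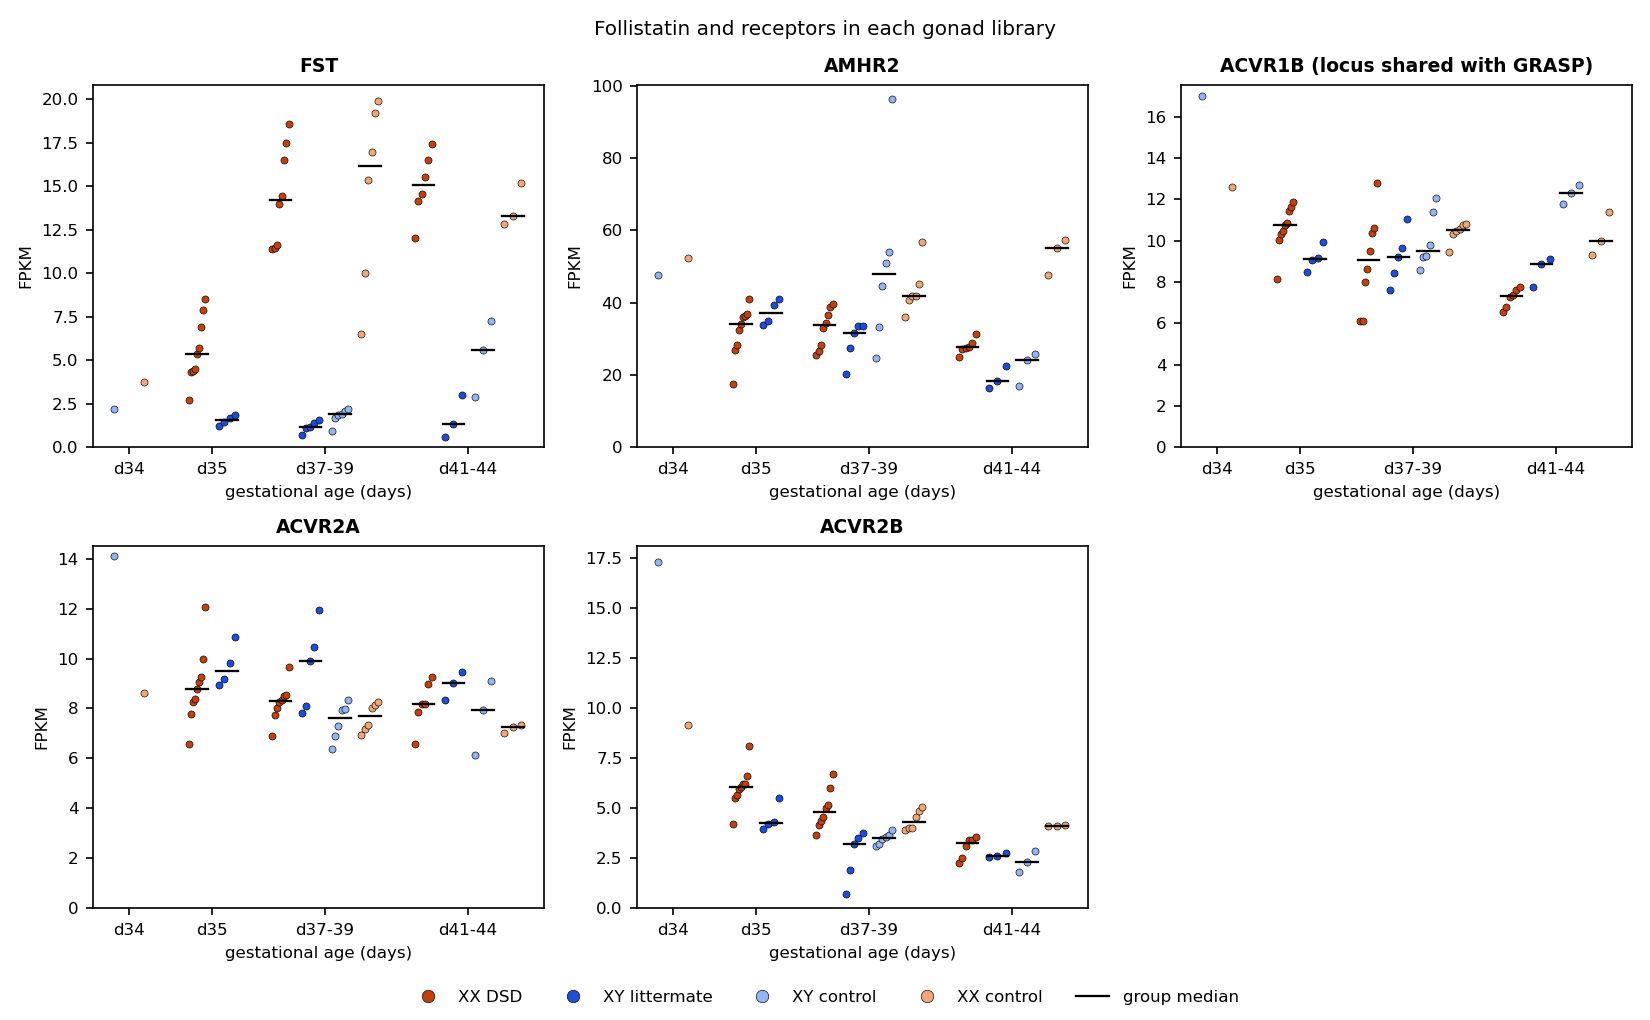
FPKM of *FST*, *AMHR2*, *ACVR1B* (with *GRASP*), *ACVR2A* and *ACVR2B* in each gonad library (vertical axes, linear from 0) by gestational age and group (horizontal axes), with 1 point per library and a line at the median of each group; the d34 points are pools. *FST* was at 17.5 FPKM or less in XX DSD gonads of d41-44 and at 3.01 FPKM or less in their XY littermates, while *ACVR2A* lay between 6.15 and 12.1 FPKM in all single embryos.

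XX DSD gonads at risk were then compared with XX age-matched controls, to ask whether these genes leave the XX pattern in the disorder. Both XX DSD comparisons use XX controls that also served in the comparison of the sexes. No member was called higher in XX DSD gonads at either age with the main settings. *ACVR2A* at d41-44 had a log2 fold change of 0.16 (limma adjusted p = 0.2). It was called higher under quantile normalization (adjusted p = 0.031), without the d41 embryos (0.027) and without C3696 (0.024). At d37-39, 2 of 9 were called, *AMH* and *AMHR2*, both lower, where 31.2% of annotated genes and 13.8% of discovery loci were called. At d41-44, 5 of 9 were called, *AMH*, *INHA*, *AMHR2*, the locus of *ACVR1B* and *ACVR2B*, all lower, where 68.8% of annotated genes and 48.5% of loci were called, so the share of members was near that of all features there. The median log2 fold change of the 9 members was 0.05 at d37-39 and -0.35 at d41-44, and that of all loci 0.09 and -0.09. Most of the loci called were lower too, 2045 of 3470 at d37-39 and 5668 of 9419 at d41-44.

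*AMH* had 0.814, 3.66 and 11.7 FPKM (lowest, median, highest of 8) in XX DSD gonads of d37-39, against 7.9, 11.4 and 17.3 FPKM in 6 XX controls. The means were 5.26 ± 3.87 FPKM (SD, n = 8) and 12 ± 3.88 FPKM (SD, n = 6), 2.29-fold lower in XX DSD gonads (log2 fold change of -1.24 ± 0.36 SE, adjusted p = 0.017). The overlap came from d37, where XX DSD gonads of 1 litter averaged 11.3 FPKM and XX controls 14.9 FPKM. At d39 the 6 XX DSD gonads had 4.3 FPKM at most and the 3 XX controls 7.9 FPKM at least. Litter decided the call: with litter as a random block the log2 fold change was -1.24 with an adjusted p of 0.11, and with 1 value per litter it was -1.25 with an adjusted p of 0.25.

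At d41-44 *AMH* had 2.42, 3.33 and 6.39 FPKM (lowest, median, highest of 6) in XX DSD gonads, against 7.73, 8.32 and 7.08 FPKM in XX controls of d44. The groups did not overlap, and the difference in the means was 1.9-fold (log2 fold change of -0.86 ± 0.26 SE, adjusted p = 0.014). With 1 value per litter the adjusted p was 0.19, with all groups in one fit 0.093, and without the XX control A1107 it was 0.0519. In neither comparison did any XX DSD gonad come near the XY range: the highest *AMH* value of any of the 23 XX DSD libraries was 33.6 FPKM, in a d35 embryo.

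*INHA* at d37-39 had 53.3, 87.2 and 174 FPKM (lowest, median, highest) in XX DSD gonads, against 108, 171.3 and 320 FPKM in XX controls, and missed the threshold (log2 fold change of -0.88 ± 0.29 SE, adjusted p = 0.063). It passed under 5 alternatives, among them a filter at 4 FPKM (adjusted p = 0.046) and quantile normalization (0.027), and without C3642 (0.028) or C3632 (0.036). At d41-44 *INHA* was lower, with 48.9, 68.8 and 106 FPKM in XX DSD gonads, against 165, 157 and 182 FPKM in XX controls (2.37-fold lower, log2 fold change of -1.28 ± 0.22 SE, adjusted p = 0.00092). With 1 value per litter that change was -1.33 with an adjusted p of 0.075.

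*AMHR2* gave the clearest separation at d41-44. XX DSD gonads had 24.9, 27.6 and 31.2 FPKM (lowest, median, highest of 6), against 55.1, 47.7 and 57.2 FPKM in XX controls, 1.91-fold lower (log2 fold change of -0.91 ± 0.08 SE, adjusted p = 2e-05), and the call held under every alternative run. At d37-39 the ranges overlapped, with 25.5, 33.7 and 39.6 FPKM in XX DSD gonads and 36.1, 41.8 and 56.9 FPKM in XX controls (log2 fold change of -0.41 ± 0.12 SE, adjusted p = 0.034). That smaller difference lost its call under 6 of the 11 other settings, with an adjusted p of up to 0.499 at 1 value per litter. It was also lost without any one of the XX DSD gonads C3512, C3515 and C3632 or the XX controls A1097, A1098, A1086, A1088 and A1089 (adjusted p up to 0.0862).

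The locus of *ACVR1B* averaged 7.24 ± 0.475 FPKM in XX DSD gonads of d41-44 (SD, n = 6) and 10.2 ± 1.05 FPKM in XX controls (SD, n = 3), without overlap (log2 fold change of -0.44 ± 0.07 SE, adjusted p = 0.00077). *ACVR2B* averaged 3.06 ± 0.534 FPKM in XX DSD gonads and 4.13 ± 0.0227 FPKM in XX controls there (log2 fold change of -0.35 ± 0.12 SE, adjusted p = 0.034). That call depended on the processing, with an adjusted p of 0.072 without the filter, 0.16 after quantile normalization and 0.27 with 1 value per litter, and it was lost without any 1 XX control or without the XX DSD embryo C3696. The antisense locus beside *ACVR2B* averaged 2.7 FPKM in XX DSD gonads of d41-44 and 0.0606 FPKM in XX controls; its part in the result was not tested.

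The activin subunit genes and *FST* were not called in XX DSD gonads at either age. *INHBA* averaged 6.63 ± 1.34 FPKM in XX DSD gonads of d41-44 (SD, n = 6) and 5.81 ± 0.227 FPKM in XX controls (SD, n = 3), a log2 difference of 0.15 with a 95% interval of -0.16 to 0.45. *FST* averaged 15 ± 1.91 FPKM in XX DSD gonads and 13.8 ± 1.26 FPKM in XX controls at that age, a log2 difference of 0.11 (95% interval -0.13 to 0.36). For *INHBB* the interval was wider, -0.34 to 0.52 at d41-44 and -0.56 to 1.09 at d37-39. At d37-39 the *FST* interval was -0.42 to 0.51, and neither its sign nor that of *INHBA* was stable under other scalings.

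Within the d37-39 group *INHBB* ranged from 1.21 to 11.8 FPKM among XX DSD gonads, and *AMH* from 0.814 to 11.7 FPKM. The littermates C3512 and C3515, both of d37, had 11.8 and 5.6 FPKM of *INHBB*, and the 6 gonads of d39 had 1.21 to 3.31 FPKM. XX controls showed the same order by age, with 3.64 to 5.4 FPKM at d37 and 0.575 to 2.11 FPKM at d39. Each of the d37 groups is 1 litter, so age and litter cannot be told apart.

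Sums of cell type markers are given beside these results, and not all of them differed. At d41-44 the germ cell, Leydig, mesonephros, endothelial and macrophage sums overlapped between XX DSD gonads and XX controls. Endothelial sums, for example, were 128 to 139 and 134 to 163 FPKM in that order. The 1 adrenal marker measured did not overlap, with 0.171 to 1.2 FPKM in XX DSD gonads and 0.0512 to 0.138 FPKM in XX controls. The summed level of 5 pre-granulosa markers, all 5 of the list measured, had a median of 84.3 FPKM in XX DSD gonads of d41-44 (69.3 to 102 FPKM), against a median of 205 FPKM and a highest value of 207 FPKM in XX controls, and the groups did not overlap. At d37-39 it was 53.6 to 103 FPKM in XX DSD gonads and 108 to 167 FPKM in XX controls, also without overlap. For 5 of 6 Sertoli markers, *DHH* not being measured alone, the sums of d37-39 overlapped. They were 403 to 1078 FPKM in XX DSD gonads and 776 to 1012 FPKM in XX controls. At d41-44 the Sertoli sum was 472 to 773 FPKM in XX DSD gonads and 880 to 940 FPKM in XX controls, most of it *PTGDS*, which makes prostaglandin D2. *SOX9* averaged 3.69 FPKM in XX DSD gonads and 3.96 FPKM in XX controls there (adjusted p = 0.44). The part of these markers in the results at both ages, and of the lower depth at d41-44, was not tested. Of 9 tested regulators of gonad fate, 0 were called higher and 5 lower at d41-44 in XX DSD gonads, among them the ovarian genes *FOXL2* (24.7 FPKM in XX DSD gonads and 48.5 FPKM in XX controls), *WNT4* (16.3 and 35.2 FPKM) and *RSPO1* (37.1 and 98.6 FPKM), and 3 were lower at d37-39. The shares of all loci called there were 48.5% and 13.8%.

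**Figure D3:**
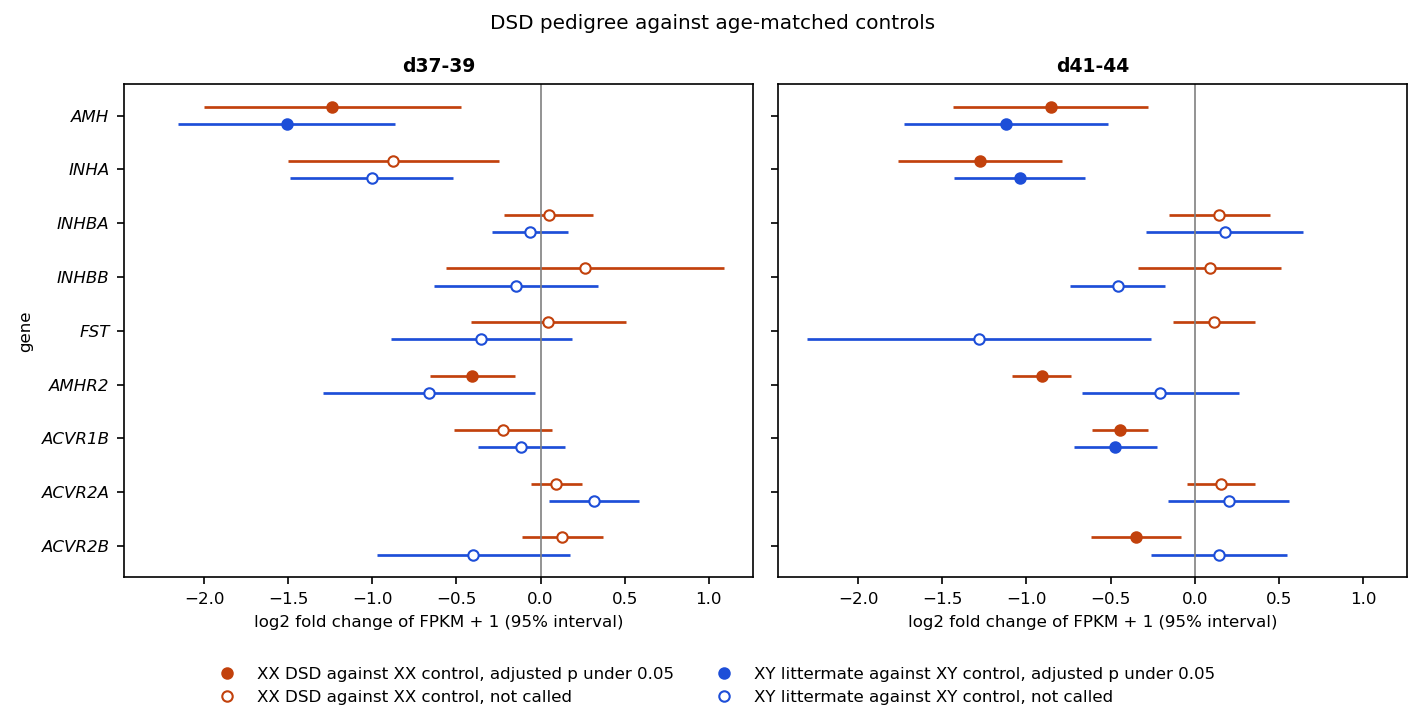
Log2 fold change of FPKM + 1 with its 95% interval (horizontal axes) for each of the 9 members (vertical axis) at d37-39 and d41-44, for XX DSD against XX controls and XY littermates against XY controls; filled points had an adjusted p under 0.05. Of the 11 filled points, each lies below 0, and those of *AMH* are at -1.24 and -1.51 at d37-39 and at -0.86 and -1.12 at d41-44. Most of all loci called in these comparisons were lower too.

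XY littermates, which form testes and share the pedigree, showed whether the same genes differ in XY gonads. At d37-39 only *AMH* of the 9 members was called against XY controls, where 11.6% of annotated genes and 1.29% of loci were called. At d41-44 *AMH*, *INHA* and the locus of *ACVR1B* were called, all lower in XY littermates, where 27.7% of annotated genes and 11.2% of loci were called. These XY littermates were of d41 or d42 and the XY controls of d44, so none was as old as its controls. Their relative depth was 0.254 to 0.293, against 0.4 (0.4005) to 0.595 in XY controls. The Sertoli marker sum was 1656 to 1959 FPKM in XY littermates and 1968 to 3596 FPKM in XY controls. Neither measure overlapped between the groups, and the part of both in the results was not tested. *SOX9*, a marker in that sum, was not lower in XY littermates, as given below. The XY controls also served in the comparison of the sexes. The median log2 fold change of the 9 members was -0.35 at d37-39 and -0.46 at d41-44, where that of all loci was 0.345 and -0.025. Most of the loci called were lower here as well, 286 of 416 at d37-39 and 1642 of 2146 at d41-44.

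At d37-39 *AMH* had 1570, 1053, 844, 1043 and 1887 FPKM in XY littermates, against 2419, 2898 and 6269 FPKM (lowest, median, highest of 6) in XY controls, without overlap (2.95-fold lower, log2 fold change of -1.51 ± 0.3 SE, adjusted p = 0.013). Without the 4 libraries that stood apart, 2 XY littermates and 5 XY controls remained, the log2 fold change was -1.53 and the adjusted p 0.27, and no member was called. At d41-44 the 3 XY littermates had 2149, 1773 and 3112 FPKM, against 6111, 4499 and 4430 FPKM in XY controls (2.14-fold lower, log2 fold change of -1.12 ± 0.26 SE, adjusted p = 0.028). This call was lost under 4 alternative settings that kept all replicates or left out the d41 embryos, with an adjusted p of 0.0621 to 0.0843, and without C3691, C3518, A1106 or A1108 (0.0686 to 0.0924).

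*INHA* in XY littermates of d37-39 had 218.7, 249, 224, 262 and 327 FPKM, against 296, 515 and 836 FPKM (lowest, median, highest) in XY controls. Its log2 fold change was -1.004 ± 0.22 SE with an adjusted p of 0.052, where the median log2 fold change of all loci tested was 0.345. It was called under 6 other settings, with an adjusted p as low as 0.0141, and without A1095 (0.00501). At d41-44 the values were 289, 308 and 389 FPKM in XY littermates, against 766, 613 and 646 FPKM in XY controls (2.05-fold lower, log2 fold change of -1.04 ± 0.16 SE, adjusted p = 0.029). Leaving out the d41 littermate C3691 gave -0.95 with an adjusted p of 0.091, and no filter gave an adjusted p of 0.059. The call was also lost without C3518, A1106 or A1108 (0.0733 to 0.12).

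The locus of *ACVR1B* averaged 8.58 ± 0.712 FPKM in XY littermates of d41-44 and 12.3 ± 0.4658 FPKM in XY controls (SD, n = 3 each; log2 fold change of -0.47 ± 0.1 SE, adjusted p = 0.041), and that call ended without any 1 of the 6 libraries (adjusted p from 0.0646 to 0.14). *INHBB* there had 133, 119 and 130 FPKM in XY littermates, against 176, 192 and 158 FPKM in XY controls (log2 fold change of -0.46 ± 0.12 SE, adjusted p = 0.055). *FST* had 0.588, 1.31 and 3.01 FPKM in XY littermates and 7.28, 2.89 and 5.58 FPKM in XY controls (log2 fold change of -1.28 ± 0.42 SE, adjusted p = 0.093). Both were past the threshold with litter as a random block (adjusted p = 0.012 for *INHBB* and 0.033 for *FST*), but the estimated litter correlation was negative there (-0.253), which shrinks the error, and the controls were 1 litter. Without a litter term, *FST* was called with all groups in one fit (adjusted p = 0.0019) and with named loci alone (0.021). *INHBB* was called with a filter at 4 FPKM (adjusted p = 0.046) and with named loci alone (0.029). *SOX9* averaged 67 ± 8.92 FPKM in XY littermates and 58 ± 4.06 FPKM in XY controls at that age (SD, n = 3 each, adjusted p = 0.34). *GATA4*, a gonadal factor that acts on the *AMH* promoter, was lower (46.1 ± 1.35 FPKM in XY littermates, 67 ± 3.01 FPKM in XY controls, adjusted p = 0.031). It was 1 of 2 regulators called lower among 8 tested, with 0 called higher, where 11.2% of all loci were called. Its part in the *AMH* result was not tested.

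Whether a member changed differently in XX and in XY gonads of the pedigree was tested as an interaction over 4 groups. None of the 9 was called at d37-39, where 0.0207% of annotated genes and 0.00514% of loci were, and none at d41-44, where 0.256% and 0.115% were. Without the 4 libraries that stood apart 0 members were called at d37-39. At an unadjusted p under 0.05 there was 1 member at d37-39, *ACVR2B*, where 3.64% of annotated genes and 2.59% of loci passed it, and there were 4 at d41-44, where 16.9% and 12.9% did. Of these 4, *AMHR2* had a log2 fold change of -0.91 in XX DSD gonads and one of -0.20 in XY littermates, a difference of -0.70 (95% interval -1.11 to -0.3, limma adjusted p = 0.17). *FST* had a difference of 1.40 (95% interval 0.55 to 2.25, adjusted p = 0.18), *INHBB* of 0.55 (adjusted p = 0.35) and *ACVR2B* of -0.49 (adjusted p = 0.3). For *AMH* the intervals of the difference were -0.77 to 1.31 at d37-39 and -0.56 to 1.09 at d41-44, and for *INHA* -0.69 to 0.94 and -0.88 to 0.41, so differences of that size remain possible.

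The direct comparison of XX DSD gonads with XY littermates of the same pedigree, which reuses these libraries, could also be made at d35, the earliest age of single embryos. At d35, 5 members were called: *FST* was higher and *AMH*, *INHA*, *INHBA* and *INHBB* lower than in XY littermates, where 24.3% of annotated genes and 21.4% of loci were called. Of the 9 members 5 were called at d37-39 as well, the same genes in the same directions (29% of annotated genes and 7.49% of loci). At d41-44, with *AMHR2* higher too, there were 6 (42% of annotated genes and 28.3% of loci).

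At d35 *AMH* had 3.57, 16.8 and 33.6 FPKM (lowest, median, highest of 9) in XX DSD gonads, against 1020, 1288, 2241 and 2264 FPKM in XY littermates, 99.4-fold lower in the means (log2 fold change of -6.65 ± 0.42 SE, adjusted p = 1.7e-07). *INHBB* had 0.825, 4.27 and 6.31 FPKM in XX DSD gonads, against 69.7, 118, 129 and 104 FPKM in XY littermates (26.3-fold lower, adjusted p = 3.7e-07). *FST* had 2.73, 5.36 and 8.53 FPKM in XX DSD gonads, against 1.85, 1.48, 1.23 and 1.7 FPKM in XY littermates (3.58 times, adjusted p = 0.00063). None of the called members overlapped between the groups at d35, and the share of all loci without overlap was not counted. Both groups hold embryos of shared litters, and with litter as a fixed term 4 members were called, *INHA* having a log2 fold change of -1.62 (adjusted p = 0.085).

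For *AMH* and *INHBB* the ratio of the means was wider at each later age. *AMH* was 243 times lower in XX DSD gonads than in XY littermates at d37-39 and 579 times lower at d41-44 (adjusted p = 3.4e-09 and 5e-08), and *INHBB* 37.7 and 64.3 times lower. *FST* was 3.58 times higher at d35, 12.3 times at d37-39 and 9.19 times at d41-44. *INHA* was 3.14, 2.55 and 4.63 times lower and *INHBA* 3.73, 3.1 and 3.84 times lower over the same ages. *FST* averaged 14.4 ± 2.86 FPKM in XX DSD gonads of d37-39 (SD, n = 8) and 1.18 ± 0.331 FPKM in XY littermates (SD, n = 5), a log2 fold change of 2.82 ± 0.15 SE (adjusted p = 3.2e-08). Without the 3 XY littermates that stood apart, 4 members were called at d37-39, and *INHA* had a log2 fold change of -1.31 (adjusted p = 0.082), against -1.43 (adjusted p = 0.0017) with them. The other called members kept their calls there, with log2 fold changes of -7.92 for *AMH*, -4.66 for *INHBB*, -1.63 for *INHBA* and 3.01 for *FST*. The median log2 fold change of all loci was -0.28 with those libraries in. After quantile normalization *INHA* (-0.92, adjusted p = 0.14) and *INHBA* (-0.93, adjusted p = 0.11) were not called.

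Among the receptor genes *AMHR2* was called at d41-44 alone. It had 24.9, 27.6 and 31.2 FPKM in XX DSD gonads, against 22.3, 18.4 and 16.4 FPKM in XY littermates (log2 fold change of 0.54 ± 0.1 SE, adjusted p = 0.0034). With all groups in one fit the adjusted p was 0.082. *ACVR2B* at d37-39 averaged 4.96 ± 1.01 FPKM in XX DSD gonads (SD, n = 8) and 2.62 ± 1.28 FPKM in XY littermates (SD, n = 5), a larger difference that missed the threshold (log2 fold change of 0.79 ± 0.24 SE, adjusted p = 0.063). *ACVR2B* was called there with all groups in one fit (adjusted p = 5.4e-05), with named loci alone (0.0099), under quantile normalization (0.043), at a pseudocount of 0.1 (0.0496) and without C3626 (0.0474), and without the 3 littermates that stood apart it had a log2 fold change of 0.35 (0.38). For *AMHR2*, XY controls of d44 had up to 25.7 FPKM, within the XX DSD range of d41-44, and XX controls 47.7 FPKM or more, above it.

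XX DSD gonads of d41-44 were also set against those of d35, different embryos of the same pedigree from 4 litters at each age. The 6 embryos of d41-44 were all homozygous, while those of d35 were 4 homozygous and 5 heterozygous. Median relative depth was 0.284 at d41-44 and 0.742 at d35. The part of genotype and depth in these results was not tested. There were 7 called members, *INHBA* and *FST* higher and *AMH*, *INHA*, *INHBB*, *ACVR2B* and the locus of *ACVR1B* lower, where 42.8% of annotated genes and 35% of loci were called. *FST* had 12, 15 and 17.5 FPKM (lowest, median, highest of 6) at d41-44, against 2.73, 5.36 and 8.53 FPKM at d35 (2.69 times, log2 fold change of 1.33 ± 0.17 SE, adjusted p = 5.7e-05), without overlap. *AMH* had 2.42, 3.33 and 6.39 FPKM at d41-44, against 3.57, 16.8 and 33.6 FPKM at d35 (4.23-fold lower, adjusted p = 0.0012), and the overlap was due to C3575.

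*ACVR2B* averaged 3.06 ± 0.534 FPKM at d41-44 (SD, n = 6) and 6.06 ± 1.02 FPKM at d35 (SD, n = 9; adjusted p = 8.4e-05), and *INHBA* 6.63 ± 1.34 and 3.54 ± 1.1 FPKM in that order (adjusted p = 0.0024). *INHBB* was 2.02-fold lower at d41-44 (adjusted p = 0.04), a call that ended at a pseudocount of 0.1 (adjusted p = 0.057) and without any 1 library other than C3573, C3575, C3616 and C3694 (adjusted p up to 0.0798). *INHA* was 2.09-fold lower at d41-44 (adjusted p = 0.02) and lost its call after quantile normalization (adjusted p = 0.074) and without C3659 (0.0517). There were no XX controls of d35, so the same change with age was not tested in controls. In XX controls *AMH* was at 19.4 FPKM in the d34 pool. Its means were 14.9 FPKM at d37, 9.14 FPKM at d39 and 7.71 FPKM at d44. *INHA* had 71, 235, 137 and 168 FPKM in that order. Each day of single control embryos was 1 litter.

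Ratios of members within a library do not depend on its scaling, and are given as a description. *INHBB* over *INHBA* had medians of 8.43 at d35, 8.53 at d37-39 and 4.85 at d41-44 in XY littermates. It had medians of 7.49 and 7.67 in XY controls of d37-39 and d44. In XX DSD gonads the medians were 1.07 at d35, 0.425 at d37-39 and 0.274 at d41-44, and in XX controls 0.488 at d37-39 and 0.314 at d44. The highest ratio in any XX library was 2.13, in C3512, and the lowest in an XY embryo 4.01.

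*FST* over the sum of both beta subunit genes separated the sexes by more. It lay between 0.291 and 3.17 in all XX DSD libraries and between 0.569 and 3.51 in XX controls. In XY littermates it lay between 0.00385 and 0.0235 and in XY controls of d37-39 and d44 between 0.00398 and 0.0363. *INHA* over *INHBA* did not separate the sexes. At d41-44 its medians were 10.2 in XX DSD libraries and 12.6 in XY littermates, against 28.1 in XX controls and 31.3 in XY controls. At d37-39 they were 14.4 and 13.6, against 27.8 and 26.7 in that order. At d35 the medians were 42.1 in XX DSD libraries and 35.5 in XY littermates. The d34 control pools had 8.4 (XX) and 11 (XY).

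**Figure D4:**
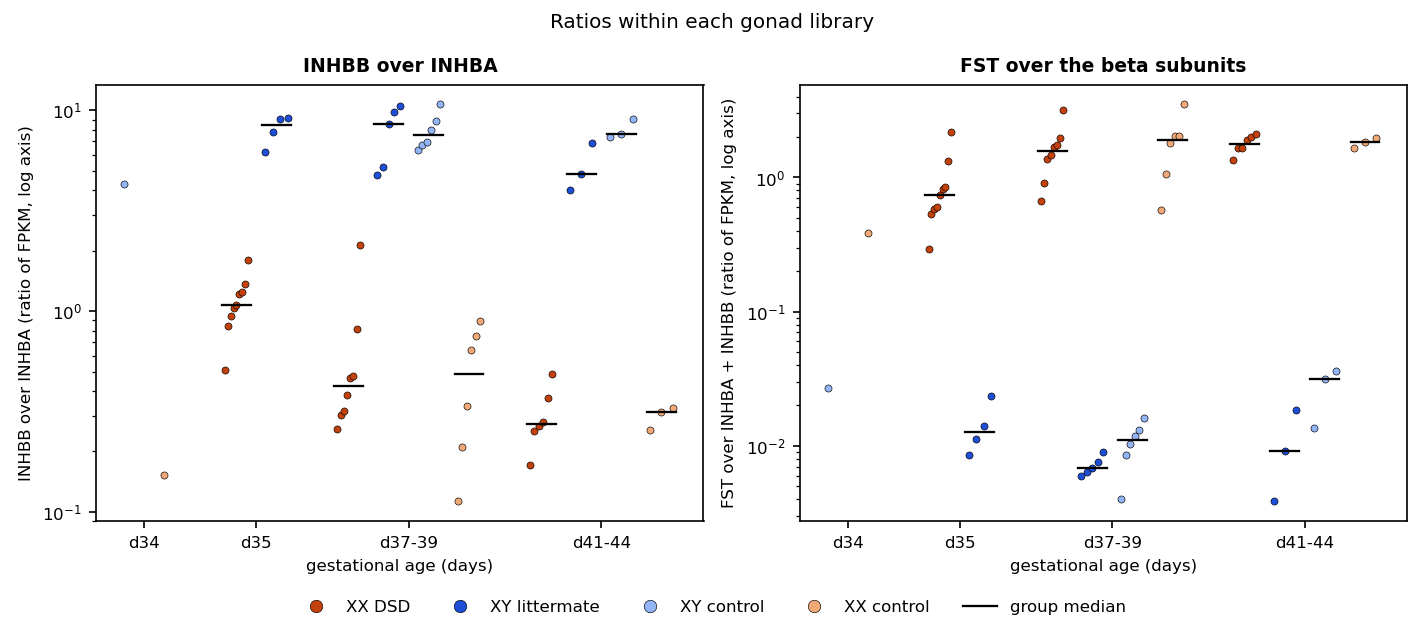
Ratio of FPKM within each library (vertical axes, log scale) by gestational age and group (horizontal axes), for *INHBB* over *INHBA* and for *FST* over the sum of *INHBA* and *INHBB*, with 1 point per library and a line at the group median; the d34 points are pools. The *INHBB* ratio was at 2.13 or less in XX embryos and at 4.01 or more in XY embryos.

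Other genes of the pathway were counted from a list of 21, of which 19 had a locus of their own and 15 were tested in most comparisons. Between XY and XX controls 5 were higher and 4 lower at d37-39 and also at d44, where 26.5% and 24.8% of all loci were called. These values include A1099. *SMAD7*, an inhibitory SMAD, averaged 40.9 FPKM in XY controls of d37-39 and 9.08 FPKM in XX controls (adjusted p = 1.8e-06), and the proprotein convertase genes *PCSK5* (16 FPKM in XY and 5.4 FPKM in XX controls of d37-39) and *FURIN* (23.6 and 10.9 FPKM at d44), whose products cleave TGF-beta family precursors, were also higher in XY controls. *SMAD5*, which carries AMH and BMP signals, averaged 18.3 FPKM in XY controls and 47.5 FPKM in XX controls (adjusted p = 4e-07). The median log2 fold change of the list was -0.02 at d37-39 and that of all loci 0.015.

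In XX DSD gonads 4 of 15 tested pathway genes were higher and 0 lower than in XX controls at d37-39, and 7 were higher and 2 lower at d41-44, with list medians of 0.15 and 0.10 on the log2 scale. Of all loci 13.8% and 48.5% were called in these comparisons, so the share at d41-44 was near the background. *BMPR1B*, a type I receptor gene, averaged 3.01 FPKM in XX DSD gonads of d37-39 and 1.7 FPKM in XX controls (adjusted p = 0.0037). At d41-44 *SMAD9* averaged 7.16 FPKM in XX DSD gonads and 5.05 FPKM in XX controls (adjusted p = 0.00037), and *ACVR1*, a type I receptor that AMH can use, 14.4 and 10 FPKM (adjusted p = 0.0038). *FURIN* was lower there, with 6.39 FPKM in XX DSD gonads and 10.9 FPKM in XX controls (adjusted p = 0.0013). When XY littermates were set against XY controls, 0 of 14 were called at d37-39, where 4 (*SMAD6*, *SMAD9*, *TGFBR3* and *BAMBI*) had an unadjusted limma p under 0.05, as did 13.5% of all loci. At d41-44 1 of 14, *FURIN*, was lower (14.7 FPKM in XY littermates and 23.6 FPKM in XY controls, adjusted p = 0.037), where 11.2% of loci were called.

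The libraries were searched for the genes whose levels ran most like those of a member, by Pearson r of log2(FPKM + 1) over the 53 single-embryo libraries, which share sex and age structure. *INHBB* ran with *PLEKHB1* (r = 0.99), *TOX2* (0.98) and *SERPINA5* (0.98). *FST* ran with *ESR1*, an estrogen receptor gene (0.94), *PGM5* (0.93) and *GREB1* (0.93), and *INHA* with *ADAMTSL2* (0.96), *FAM222A* (0.92) and *ISYNA1* (0.91). For *AMH* the 3 nearest annotated genes carried identifiers without symbols, at r of 0.99, 0.99 and 0.98. One of them, ENSCAFG00000030687, averaged 832 FPKM in XY controls of d44 and 0.989 FPKM in XX controls. It lay on CanFam3 chromosome 20 (56782444 to 56783899). The study lists *AMH* in the same part of that chromosome, and whether this feature is a separate gene was not tested. At d37-39 the feature averaged 1.33 FPKM in XX DSD gonads and 1.48 FPKM in XX controls. In XX DSD gonads of d41-44 it averaged 0.661 FPKM.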

How the data were processed

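RNA was sequenced from TruSeq RNA v2 libraries, a kit that does not mark strand. The submitters' processing notes name cutadapt 1.5, TopHat2 2.0.13, Cufflinks 2.2.1 and Cuffnorm, with CanFam3 as the genome. The authors deposited FPKM (fragments per kilobase of transcript, scaled to library size) for annotated genes and for loci of a guided assembly, with other values, exon positions, in a deposited annotation file. FPKM were used as deposited. Read totals are not among the values used here, so depth is relative, and library number limits precision.

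Here log2(FPKM + 1) was fitted with limma 3.58.1 in R 4.3.3, using only the groups compared, for features that averaged 1 FPKM or more in a compared group. Tests were two-sided, with p-values adjusted by Benjamini-Hochberg over all such features and a threshold of 0.05. *AMH* came from the annotated genes and the other members from the assembly. Scripts were checked on simulated data. Samples were grouped by the labels. Libraries of 1 litter are not fully independent, and litter was an alternative. The members and lists were chosen with earlier results of these data known. Named were all members, at most 4 pathway genes per comparison with the lowest adjusted p, regulators beside the members, and the 3 features most like *AMH*, *INHA*, *INHBB* or *FST* among those averaging 4 FPKM or more in a group. Alternatives changed the pseudocount, filter, scaling, spread, litter, age, genotype and libraries. Leaving out the 4 libraries with many loci and keeping only loci of 1 named gene were added after the data were seen. Embryos labelled d41 are listed as younger in the study's own table, and the labels were used. The d34 pools entered no test.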

Additional observations from a re-analysis of the deposited data

Results flagged for a closer look

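Single libraries that stood far from the rest of their group are listed here by Dixon's test at the 95% level, over the 63 combinations of member and group with 4 to 10 libraries. It marked 7 of them (11.1%), where chance marks about 1 in 20, or 3.15 of 63, and values of 1 library are not independent of each other.

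Of the 7, 3 came from the same d35 XX DSD embryo, C3575. It had the lowest *AMHR2* of its group at 17.5 FPKM (next 26.9 FPKM), the lowest *INHA* at 40 FPKM (39.96; next 110 FPKM) and the lowest *INHBB* at 0.825 FPKM (next 2.82 FPKM). It was also lowest in *AMH* (3.57 FPKM) and *INHBA* (1.63 FPKM), without reaching the critical value there, while its *FST* was at the group median, 5.36 FPKM. It was lowest in *ACVR2B* (4.2 FPKM) and highest in *ACVR2A* (12.1 FPKM) too. Its library was the shallowest of its group, at a relative depth of 0.25 against a group median of 0.742, and had the fewest loci at 1 FPKM or more of all libraries, 14418. The part of depth in these values was not tested. Leaving it out brought *AMHR2* past the threshold between XX DSD gonads of d41-44 and d35 (log2 fold change -0.27, adjusted p = 0.028) and *ACVR2B* between XX DSD gonads and XY littermates of d35 (adjusted p = 0.0087).

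Among XX DSD gonads of d41-44, C3694, labelled d41, had the highest *INHBB* at 3.45 FPKM (next 1.96 FPKM). The XY control A1094 of d39 had the lowest *FST* of its group at 0.949 FPKM (next 1.71 FPKM) and the highest *AMH*, 6269 FPKM. At the locus of *ACVR1B*, the d35 XX DSD embryo C3511 was lowest at 8.14 FPKM (next 10 FPKM), and the d37 XX control A1097 was lowest at 9.47 FPKM (next 10.3 FPKM).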

How the results depend on the processing

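The number of members called between XX DSD gonads and XX controls of d37-39 was 2. It was 1 without a filter, in d39 embryos alone and in homozygous embryos alone, 4 after median scaling, and 0 with litter as a random block or 1 value per litter, and leaving out 1 library gave 1 to 3 members. At d41-44 the number of members was 5, against 3 with all groups in one fit and 2 with 1 value per litter, and 3 to 5 leaving out 1 library. For XY littermates against XY controls of d37-39 the number of members was 1. It was 2 at a pseudocount of 0.1, a filter at 4 FPKM, median scaling and with named loci alone, 4 after quantile normalization and with all groups in one fit, and 0 without the 4 libraries with many loci, and leaving out 1 library gave 1 to 2 members. At d41-44 the number of members was 3, against 0 without a filter or without the d41 embryo, 5 with litter as a random block or named loci alone, and 0 to 2 leaving out 1 library. In the other comparisons leaving out 1 library gave 5 to 6 members between the sexes in controls of d37-39 and 5 to 7 at d44, 0 for both interactions, 5 to 6, 5 to 6 and 6 to 7 between XX DSD gonads and XY littermates by age, and 5 to 8 between the ages.

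Signs turned only where no call was made on either side. Under median scaling, log2 fold changes of XX DSD gonads against XX controls of d37-39 were -0.10 for *INHBA*, -0.12 for *FST*, -0.064 for *ACVR2A* and -0.019 for *ACVR2B*, and under quantile normalization -0.084 for *INHBA*, -0.14 for *FST* and -0.043 for *ACVR2A*. In d39 embryos alone they were -0.035 for *INHBA* and -0.28 for *FST*, and at d41-44 *INHBB* was at -0.030 without d41 embryos. Between control sexes of d37-39, d39 embryos alone gave -0.39 for *AMHR2* and 0.0016 for *ACVR1B*, and leaving out A1099 gave -0.12 for *AMHR2*. For XY littermates of d37-39 *ACVR2A* was at -0.14 under median scaling and -0.42 under quantile normalization, and without the 4 libraries *INHBA* was at 0.032 and *ACVR2B* at 0.070. The interaction at d37-39 was 0.17 for *ACVR1B* and 0.060 for *ACVR2A* under median scaling and 0.52 and 0.39 under quantile normalization. In d39 embryos alone it was -0.14 for *AMHR2*, -0.13 for *FST* and 0.077 for *ACVR1B*, and without the 4 libraries -0.020 for *AMHR2*. At d41-44 it was -0.0073 for *ACVR1B* under median scaling, 0.079 for *INHBA* and 0.034 for *ACVR2A* under quantile normalization, and 0.025 for *ACVR2A* without d41 embryos. For XX DSD gonads against XY littermates of d37-39 *ACVR1B* and *ACVR2A* were at 0.23 and 0.097 under median scaling and 0.61 and 0.45 under quantile normalization, *ACVR1B* was at 0.075 in d39 embryos alone, and *ACVR2A* at 0.039 without the 4 libraries. The cause was not tested.

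Leaving out 1 library at a time, values crossed 0 for *AMHR2* (-0.12 to 0.27) and *ACVR2A* (-0.061 to 0.0068) between control sexes of d37-39 and for *ACVR2A* at d44 (-0.036 to 0.21). They did so for *INHBA* (-0.014 to 0.12) and *FST* (-0.15 to 0.15) in XX DSD gonads of d37-39, *INHBB* at d41-44 (-0.032 to 0.15), and in XY littermates *INHBB* at d37-39 (-0.28 to 0.014) and *INHBA* at d41-44 (-0.0033 to 0.35). In the interactions they did so for *INHA* at d37-39 (-0.015 to 0.31) and at d41-44 for *INHBA* (-0.20 to 0.15), *ACVR1B* (-0.036 to 0.099) and *ACVR2A* (-0.16 to 0.090), and for *ACVR1B* between XX DSD gonads and XY littermates of d37-39 (-0.12 to 0.014).

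Reading the other members from the annotated table was not run, since identifiers there are not paired with these genes, nor was a litter term at d44, where controls are 1 litter. Read totals were not used, so depth limits are known only in relative terms. Replicate numbers do not link samples across groups. Within litters, litter as a fixed term gave 6 members between the sexes in controls of d37-39 and 4, 5 and 6 members between XX DSD gonads and XY littermates at d35, d37-39 and d41-44, against 6, 5, 5 and 6 without it.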

Other observations

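Among XX DSD gonads of d35, *INHBB* had 4.52 to 6.31 FPKM in the 4 homozygous and 0.825 to 4.27 FPKM in the 5 heterozygous embryos. The genotypes did not overlap there, but 3 of the 4 homozygous embryos came from a litter without heterozygotes, so genotype and litter are largely confounded. *AMH* and *INHA* did overlap: *AMH* had 13.2 to 21.7 FPKM in homozygous and 3.57 to 33.6 FPKM in heterozygous embryos, and *INHA* had 110 to 171.4 FPKM in homozygous and 40 (39.96) to 228 FPKM in heterozygous embryos. These differences were not tested. At d37-39 the 6 homozygous embryos had 1.21 to 11.8 FPKM of *INHBB*, a range that held both heterozygous values.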
